A study of Mus musculus with 4 samples.

Results

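The genes described here are 10 components of Nodal signalling in mouse embryonic stem cells, taken by symbol: the ligand Nodal, its inhibitors Lefty1 and Lefty2, the coreceptor Tdgf1, the receptor Acvr2b, the signal transducers Smad2 and Smad3, the inhibitory Smad7, and the transcriptional cofactors Foxh1 and Skil. All 10 had a row in the files, out of 23259 genes, and all 10 reached the mean of 1 FPKM over the 4 libraries (a level per length of transcript, here normalized to spike-ins) that the 11932 tested genes had to reach. The libraries came from 2 clones without Gcn5 (KO), a histone acetyltransferase encoded by Kat2a, and 2 clones with it (WT), to see which expression levels change when Gcn5 is lost. Both founder lines, 4 and 6, were male Gcn5 flox/flox lines derived from blastocysts at embryonic day 3.5. A GFP-Cre fusion driven by the EF1α promoter was transfected transiently into each line and cells were sorted at 72 hours. From GFP-positive cells of each line 1 KO clone was picked, in which exons 3 to 18 of Gcn5 are removed on both alleles, and from GFP-negative cells 1 WT clone, which keeps the floxed alleles. KO replicate 2 and WT replicate 2 are from line 6, and KO replicate 1 and WT replicate 1 are from line 4, so each genotype holds 1 clone per line. Culture was on a feeder layer of fibroblasts, in medium with 1000 U/mL of LIF and 15% serum, for all clones.

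Nodal belongs to the TGF-beta family. With the coreceptor Cripto, encoded by Tdgf1, it binds type I and type II activin receptors, which phosphorylate Smad2 and Smad3, and these join Smad4 and bind DNA with partners such as Foxh1. Nodal itself, Lefty1, Lefty2, Smad7 and Skil are known targets of the pathway. The Lefty proteins, Smad7 and SnoN, the product of Skil, restrain it. In the early embryo the pathway maintains the epiblast and patterns mesoderm and endoderm, and in cultured mouse stem cells it is active without being required for self-renewal.

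Lefty1 and Lefty2 lie next to each other on chromosome 1, at chr1:180935022-180938401 and chr1:180893108-180899107 (RefSeq, GRCm38.p6), and are so alike that short reads can fit either. Their coding sequences in GENCODE M21 are 1107 bases each and matched at 91.87% of aligned bases, with an unbroken run of 140 identical bases. Of all 50-base stretches of the annotated transcripts, 17.93% for Lefty1 and 11.95% for Lefty2 also occurred in the other gene. The 90 coding bases that differ most, from base 35 to base 124 of both, show what sets their reads apart, with the 27 differing bases in capitals.
Lefty1: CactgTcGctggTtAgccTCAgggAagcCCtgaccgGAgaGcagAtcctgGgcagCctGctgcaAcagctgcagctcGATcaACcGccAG
Lefty2: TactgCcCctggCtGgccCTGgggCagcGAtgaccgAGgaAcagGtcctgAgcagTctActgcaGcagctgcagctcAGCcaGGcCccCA
Tdgf1 shared 8.86% of its 50-base stretches with the pseudogene Tdgf1-ps1, and the other 7 genes shared 0 with any annotated transcript. The sources used here do not say how the authors treated reads that fit more than 1 gene, so the split between Lefty1 and Lefty2 is uncertain.

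Levels differed widely between the genes, with the coreceptor highest. Tdgf1 had 481 and 503 FPKM in the KO clones of lines 6 and 4, against 578 and 816 FPKM in the WT clones of lines 6 and 4, higher than 98.5% of tested genes on average. It stood above all other members in every library, with no overlap of ranges. The inhibitors came next, Lefty1 with a mean of 66.6 FPKM and Lefty2 with 48.4 FPKM over the 4 libraries, followed by Skil with 44.5 FPKM. The ranges of these 3 overlapped between neighbours. Nodal (23.8 FPKM), Foxh1 (23.2 FPKM), Smad7 (15.7 FPKM), Acvr2b (11.6 FPKM) and Smad2 (8.82 FPKM) formed a lower group in which each range overlapped the next. Smad3, at 4.17 to 5.93 FPKM, was below Smad2 in every library, and their ranges did not overlap. The highest library was between 1.33 times (Skil) and 2.08 times (Lefty2) the lowest for a given gene.

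**Figure D1:**
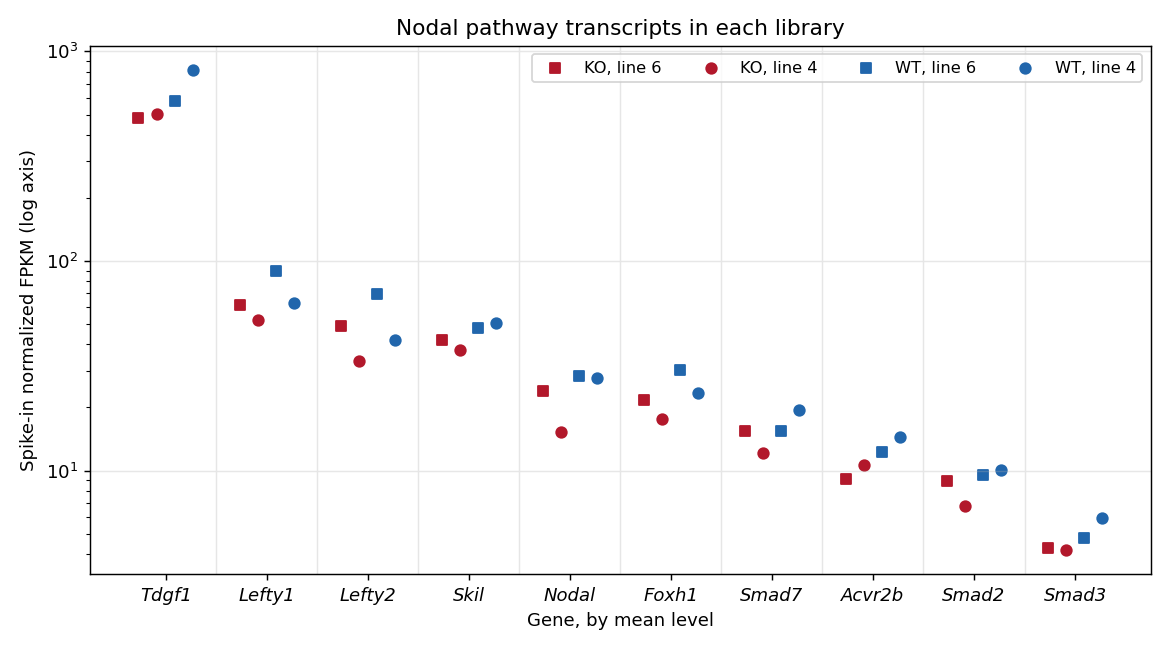
Level of each gene in FPKM (log axis) in the 4 libraries, ordered by mean level, with squares for line 6, circles for line 4, red for KO and blue for WT, 1 point per library. Tdgf1 lies at 481 to 816 FPKM and Smad3 at 4.17 to 5.93 FPKM. For every gene the KO point of a line lies below the WT point of that line, for Smad7 in line 6 by only 0.076%.

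The labels were checked first. Kat2a had 11.5 FPKM in each KO clone, against 34.4 and 38.7 FPKM in the WT clones of lines 6 and 4 (log2 fold change -1.58, limma adjusted p = 0.0112). The remaining signal cannot be assigned to exons from 1 value per gene. With either KO library left out, with no filter, and on centred or quantile normalized values, 0 genes were called, so Kat2a was not. Most transcripts were listed lower in KO: 87.7% of tested genes in line 6 and 97.6% in line 4, with median differences of -0.19 and -0.44 in log2(FPKM + 1). Members are therefore also given relative to this median. The FPKM are scaled to spike-ins added per mass of RNA, so they do not measure total RNA per cell or cell number. In such bulk samples fewer cells of a type and less of a transcript in each of them cannot be told apart. The 8 stem cell markers, Pou5f1, Sox2 and Nanog among them, were all tested and summed to 3092 and 2890 FPKM in the KO clones of lines 6 and 4, against 3757 and 4553 FPKM in the WT clones. Most of each sum was Dppa5a, at 1977 and 1962 FPKM in these KO clones, against 2390 and 3124 FPKM in the WT clones. The 16 feeder fibroblast markers, of which Lum missed the 1 FPKM mean, summed to 538 FPKM (KO, line 6) and 389 FPKM (KO, line 4), against 469 FPKM (WT, line 6) and 561 FPKM (WT, line 4). No gene is listed at 0, the lowest value of a library being 0.0088 to 0.0107 FPKM. The lowest value of a fibroblast marker was 0.339 FPKM (Lum, KO, line 6). All 15 tested ones were higher in KO in line 6, by 0.043 to 0.528, and lower in KO in line 4, by differences of -1.03 to -0.16 on the log2 scale.

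All 10 Nodal pathway genes had a lower value in the KO clone than in its WT counterpart, in both lines, as did 86.3% of all tested genes. For Smad7 in line 6 the clones were almost equal, with KO 0.076% lower. For 9 of the 10 both KO clones were below both WT clones, which held for 59.8% of tested genes. The exception was Lefty2. No member passed the test between KO and WT (limma over all tested genes, adjusted p of 0.445 to 0.459), in which 0.0168% of genes were called. With the founder line as a block 0.796% of genes were called and 0 members (lowest adjusted p = 0.179, Tdgf1). At an unadjusted p under 0.05 1 member, Tdgf1, was lower, against 5.46% of tested genes. The members' log2 fold changes ran from -0.52 to -0.28 with a median of -0.40, beside -0.32 for all tested genes.

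Nodal, the ligand, had 24.0 and 15.3 FPKM in the KO clones of lines 6 and 4, against 28.2 and 27.6 FPKM in the WT clones of lines 6 and 4. The WT clones were alike and the KO clone of line 4 was the low library, so the groups did not overlap. KO averaged 19.7 ± 6.14 FPKM and WT 27.9 ± 0.474 FPKM (SD, n = 2 each), a log2 fold change of -0.52 (SE 0.25, limma adjusted p = 0.445). In line 4 Nodal was 44.3% lower in KO, which placed its log2 difference lower than all but 2.92% of tested genes, at -0.36 relative to the median gene. In line 6 it was 14.9% lower, at -0.039 relative to the median gene. Without KO replicate 1 the log2 fold change was -0.21, and without KO replicate 2 it was -0.82.

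The coreceptor was also lower in both KO clones than in either WT clone. Tdgf1 averaged 492 ± 15.7 FPKM in KO and 697 ± 168 FPKM in WT (SD, n = 2 each), and the WT clone of line 4, at 816 FPKM, stood highest. This gave a log2 fold change of -0.48 with an SE of 0.21 (limma adjusted p = 0.445). It was 16.8% lower in KO in line 6 and 38.3% lower in line 4, or -0.08 and -0.25 relative to the median gene. Without WT replicate 2 it passed the test (log2 fold change -0.73, adjusted p = 0.048), where 125 genes were called in place of 2. This rests on a WT group of line 4 alone.

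The sequences just upstream of Nodal and Tdgf1 are shown because these genes had the lowest log2 fold changes of the 10. The 250 bases before the annotated start are from RefSeq (GRCm38.p6), read along the gene: chr10:61417722-61417971 on the plus strand for Nodal and chr9:110946159-110946408 on the minus strand for Tdgf1. Capitals mark CAGAC, a core bound by Smads.
Nodal: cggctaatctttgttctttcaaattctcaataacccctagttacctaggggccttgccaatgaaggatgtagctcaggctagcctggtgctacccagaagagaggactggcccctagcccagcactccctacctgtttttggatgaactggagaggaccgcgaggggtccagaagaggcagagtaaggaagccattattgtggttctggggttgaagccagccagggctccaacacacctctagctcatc
Tdgf1: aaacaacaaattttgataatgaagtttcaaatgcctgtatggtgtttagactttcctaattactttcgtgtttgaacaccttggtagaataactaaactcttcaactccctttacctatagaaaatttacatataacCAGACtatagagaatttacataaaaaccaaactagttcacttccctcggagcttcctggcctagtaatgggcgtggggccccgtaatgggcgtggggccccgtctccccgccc
Both strands were searched in windows that reach 50 bases past the start, for CAGAC and for ATCCACA, a core bound by Foxh1. The Tdgf1 window held CAGAC once, 113 to 109 bases before the start, and the Nodal window held neither motif. CAGAC occurred in 49.6% and ATCCACA in 3.38% of all 32851 RefSeq windows of this length. Of the other members, Acvr2b and Smad3 had a window in the table, with CAGAC on the opposite strand in that of Acvr2b.

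The Lefty inhibitors behaved the other way round between the lines. Lefty1 had 61.9 and 52.1 FPKM in the KO clones of lines 6 and 4, against 89.4 and 63.0 FPKM in the WT clones of lines 6 and 4. Lefty2 had 48.9 and 33.4 FPKM in the KO clones of lines 6 and 4, against 69.5 and 42.0 FPKM in the WT clones of lines 6 and 4. The WT clone of line 6 was the high library for both genes. In line 6 Lefty1 was 30.8% and Lefty2 29.7% lower in KO, differences that were lower than all but 2.20% and 2.70% of tested genes. In line 4 they were 17.4% and 20.4% lower, less than the median gene, from which they lay 0.17 and 0.12 upward. Over both lines the log2 fold changes were -0.40 for Lefty1 (SE 0.23) and -0.41 for Lefty2 (SE 0.26), both with a limma adjusted p of 0.445. Leaving out single libraries moved Lefty1 between -0.65 and -0.15 and Lefty2 between -0.77 and -0.052, the smallest change in each case being without WT replicate 2.

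The Foxh1 transcript, which encodes the forkhead partner of Smad2 and Smad3, resembled the Lefty genes. It had 21.7 and 17.6 FPKM in the KO clones of lines 6 and 4, against 30.3 and 23.3 FPKM in the WT clones of lines 6 and 4, and the groups did not overlap. In line 6 it was 28.4% lower in KO, or -0.28 relative to the median gene, and in line 4 24.5% lower, or 0.058 relative to it (log2 fold change over both lines -0.42, SE 0.24, limma adjusted p = 0.445). Acvr2b, the type II receptor, was lower in KO by much the same share in both lines, 25.7% in line 6 and 26.8% in line 4. It had 9.12 and 10.6 FPKM in the KO clones of lines 6 and 4, against 12.3 and 14.5 FPKM in the WT clones of lines 6 and 4.

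The Smads and Skil had the log2 fold changes over both lines that were nearest to the median of all genes. For Smad7 this is the mean of opposite values, 0.18 in line 6 and -0.19 in line 4 relative to the median gene. Smad2 had 8.87 and 6.80 FPKM in the KO clones of lines 6 and 4, against 9.55 and 10.1 FPKM in the WT clones of lines 6 and 4. Smad3 had 4.29 and 4.17 FPKM in the KO clones of lines 6 and 4, against 4.78 and 5.93 FPKM in the WT clones of lines 6 and 4. Both were lower in both KO clones than in either WT clone, by 7.13% and 10.3% in line 6 and by 32.5% and 29.8% in line 4. Smad7, the inhibitory Smad, had the widest gap between lines in KO minus WT before the median gene is subtracted, after which those of Lefty1 and Lefty2 were wider. It stood at 15.5 FPKM in both clones of line 6, and at 12.2 FPKM in the KO clone against 19.5 FPKM in the WT clone of line 4, which is 37.4% lower. Skil, a corepressor of Smad2 and Smad3, had 42.1 and 37.7 FPKM in the KO clones of lines 6 and 4, against 47.7 and 50.4 FPKM in the WT clones of lines 6 and 4. Over both lines the log2 fold changes were -0.30 for Smad2, -0.28 for Smad3, -0.32 for Smad7 and -0.29 for Skil (limma adjusted p of 0.445 to 0.459). With each library centred on its median, Smad2, Smad3 and Skil were at 0.0045, 0.029 and 0.015, and Smad7 at -0.012, with the same limma test at an adjusted p of 1.00.

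**Figure D2:**
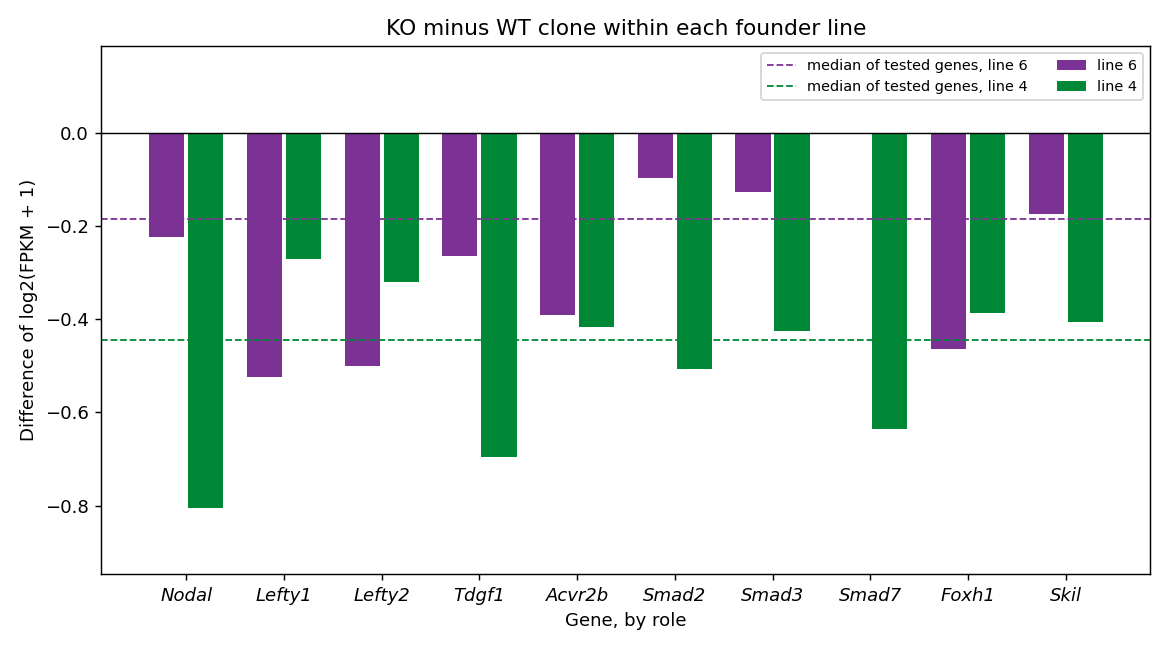
Difference of log2(FPKM + 1) between the KO and the WT clone of line 6 (purple) and of line 4 (green) for each gene, 1 pair of clones per line and no error, with dashed lines at the median of all tested genes (-0.19 and -0.44). Nodal, Tdgf1, Smad7 and Smad2 reach past the median in line 4 (-0.81, -0.70, -0.64 and -0.51). In line 6 Lefty1, Lefty2, Foxh1, Acvr2b, Tdgf1 and Nodal do (-0.52, -0.50, -0.46, -0.39, -0.26 and -0.22).

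Set against each line's own median gene, 6 of 10 members lay below it in line 6 and 4 of 10 in line 4. Nodal and Tdgf1 lay below it in both lines, 2 of 10 beside 27.1% of all tested genes. Smad3 and Skil lay above it in both, again 2 of 10 beside 27.1%. The remaining 6 changed sides: Lefty1, Lefty2, Foxh1 and Acvr2b were below the median gene in line 6 and above it in line 4, and Smad2 and Smad7 the reverse. With 1 clone per genotype and line these differences between lines could not be tested, since 4 libraries leave no residual degrees of freedom for an interaction. On this scale 10 of the 15 tested fibroblast markers exceeded the median in line 6 and line 4 alike, and their part in these values was not tested.

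Between the founder lines, Lefty2 was the 1 member whose libraries did not overlap. It had 48.9 FPKM (KO) and 69.5 FPKM (WT) in line 6, against 33.4 FPKM (KO) and 42.0 FPKM (WT) in line 4. Line 6 averaged 59.2 ± 14.6 FPKM and line 4 37.7 ± 6.04 FPKM (SD, n = 2 each), a log2 fold change of 0.63 (SE 0.35). It did not pass the test of line 6 against line 4 (limma adjusted p = 0.655), in which 0.947% of genes were called higher and 1.03% lower. It passed with genotype as a term, the paired form of this test (adjusted p = 0.0251, 9.13% of genes called), on centred values (0.0125, 30.2% of genes called) and with quantile normalization (0.0146, 32.4% of genes called). Of all tested genes, 16.3% stood higher in line 6 without overlap.

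Lefty1, Foxh1 and Nodal were also listed higher in line 6 in both genotypes, which with Lefty2 makes 4 of 10 members beside 30.8% of tested genes. Lefty1 was 1.19 times as high in line 6 among KO clones and 1.42 times among WT clones, and Foxh1 1.23 and 1.30 times. Nodal was 1.57 times as high in line 6 among KO clones, and 1.02 times among WT clones. The log2 fold changes were 0.37 (SE 0.36) for Lefty1 and 0.32 (SE 0.34) for both Foxh1 and Nodal, and none passed (limma adjusted p of 0.982 to 0.999). Nodal passed with genotype as a term on centred values (0.37, adjusted p = 0.0366, 29.6% of genes called), and Lefty1 and Foxh1 did not (0.0774 and 0.0602).

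The coreceptor and the receptor pointed to line 4. Tdgf1 averaged 530 ± 68.7 FPKM in line 6 and 660 ± 221 FPKM in line 4 (SD, n = 2 each; log2 fold change -0.28), and Acvr2b 10.7 ± 2.23 FPKM in line 6 and 12.6 ± 2.76 FPKM in line 4 (-0.21), with overlapping libraries for both. They were lower in line 6 in both genotypes, 2 of 10 beside 34.9% of tested genes. Smad2, Smad3, Smad7 and Skil were higher in line 6 among KO clones and lower in line 6 among WT clones, and their log2 fold changes between the lines were 0.13, -0.11, 0.0084 and 0.039. In limma's test 0 members had an unadjusted p under 0.05 in this comparison, against 3.46% of tested genes higher and 5.16% lower.

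**Figure D3:**
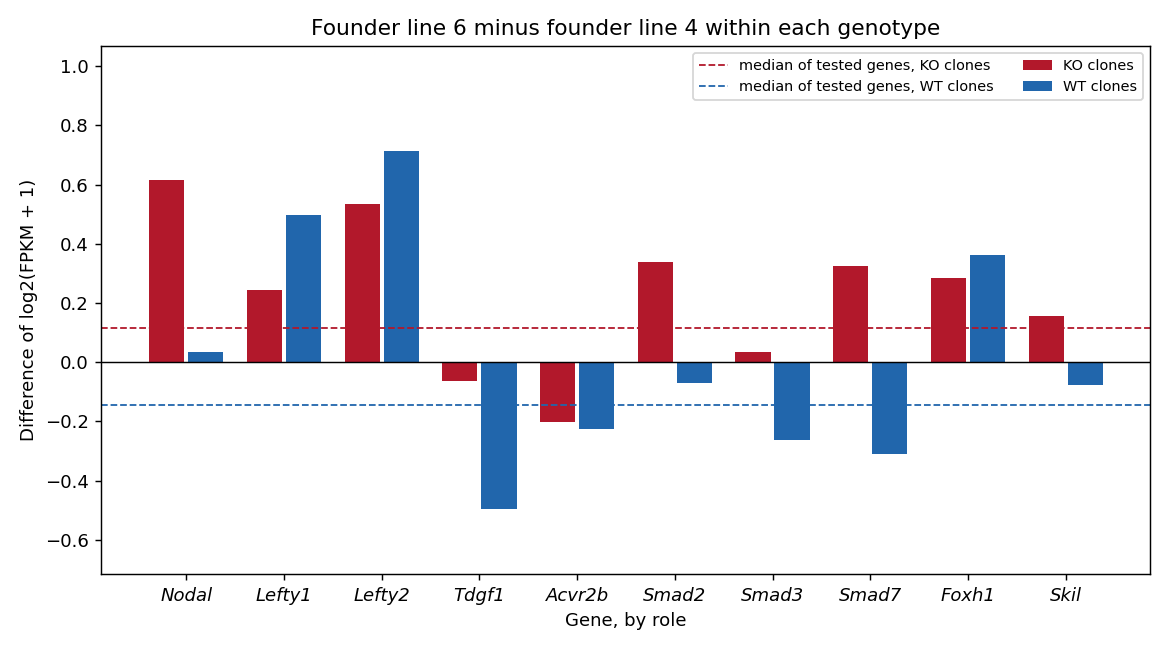
Difference of log2(FPKM + 1) between line 6 and line 4 among the KO clones (red) and among the WT clones (blue), 1 pair of clones each and no error, with dashed lines at the median of all tested genes (0.12 and -0.14). Lefty1, Lefty2 and Foxh1 are above 0 in both genotypes, Tdgf1 and Acvr2b below 0 in both, and the Smads and Skil are above 0 in KO and below 0 in WT.

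Some markers of neighbouring cell states were called between the lines. Of the 9 formative and primed epiblast markers, 8 were tested and 3 were higher in line 6 (Pou3f1, Lef1 and Sall2; log2 fold changes of 1.10, 1.18 and 1.50; 0.947% of all tested genes were called higher), and the list summed to 262 FPKM (KO) and 320 FPKM (WT) in line 6, against 142 FPKM (KO) and 165 FPKM (WT) in line 4. The largest part was Dnmt3b, which was not called (limma adjusted p = 0.145). It had 154 FPKM (KO) and 204 FPKM (WT) in line 6, against 86.8 FPKM (KO) and 84.3 FPKM (WT) in line 4. Of the 9 extraembryonic endoderm markers, whose cell type also expresses Nodal pathway genes in the embryo, 4 were tested and Dab2 was higher in line 6 (log2 fold change 1.08; 1 of 4, beside the same 0.947%). That list summed to 22.4 FPKM (KO) and 27.7 FPKM (WT) in line 6, against 8.66 FPKM (KO) and 15.1 FPKM (WT) in line 4, with Afp at 0.009 to 0.051 FPKM. Its largest part was Lama1, which was not called (limma adjusted p = 0.0972). Lama1 had 14.3 FPKM (KO) and 16.8 FPKM (WT) in line 6, against 5.47 FPKM (KO) and 9.18 FPKM (WT) in line 4. Without a filter on low values 0 genes were called between lines, so none of these marker calls held there. Pou3f1, Sall2 and Dab2 had means under 5 FPKM and did not enter the test with that filter. The part of these cell states in the levels of Lefty2 and the other members was not tested.

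Elsewhere in the Nodal and Activin pathway, 28 of 41 listed genes were tested. Between KO and WT 0 were called, beside 0.0168% of all tested genes. Their median log2 fold change in KO was -0.30, beside -0.32 for all tested genes. Lower in KO in both lines were 23 of 28, beside 86.3% of all tested genes. Gdf3, a Nodal-related ligand that uses the same coreceptor, had 83.7 and 56.5 FPKM in the KO clones of lines 6 and 4, against 97.7 and 76.8 FPKM in the WT clones of lines 6 and 4. It was the most abundant of these genes. Pcsk6, a convertase that cleaves the Nodal precursor, had log2 fold changes of -0.39 for KO against WT and 0.17 for line 6 against line 4. Drap1, a corepressor that binds Foxh1, and Nomo1, part of a membrane complex that antagonises Nodal in zebrafish, were both at -0.38 in KO. Between KO and WT the limma adjusted p was 0.445 for Gdf3, Pcsk6, Drap1 and Nomo1 alike.

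Between the lines 2 of the 28 were called higher in line 6, both of them regulators of the Activin side, beside 0.947% of all tested genes, and 0 lower. Fst, which encodes the Activin antagonist follistatin, had 4.15 FPKM (KO) and 4.60 FPKM (WT) in line 6, against 0.945 FPKM (KO) and 1.73 FPKM (WT) in line 4 (log2 fold change 1.22, SE 0.28, limma adjusted p = 0.00136). Inhba, which encodes the subunit of Activin A, had 6.09 FPKM (KO) and 4.24 FPKM (WT) in line 6, against 1.56 FPKM (KO) and 2.42 FPKM (WT) in line 4 (log2 fold change 1.04, SE 0.29, adjusted p = 0.0234). Neither gene's libraries overlapped between the lines. Both calls ended without KO replicate 2 or WT replicate 2 (adjusted p = 1.00), where 21 and 6 genes were called in all, and without a filter on low values (0.36 and 0.474).

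Targets of the pathway in mesendoderm were listed at low levels. Of 9 listed, T, Mixl1, Gsc, Lhx1, Foxa2, Sox17, Mesp1 and Fgf8 had means under 1 FPKM and were not tested, and none of them reached 1 FPKM in any library. Eomes, a T-box factor, had 1.34 and 1.58 FPKM in the KO clones of lines 6 and 4, against 1.73 and 2.00 FPKM in the WT clones of lines 6 and 4. Cer1, Cfc1 and the receptor Acvr1c also had means under 1 FPKM, and Acvr1c stood at 0.009 to 0.011 FPKM in every library.

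The TGF-beta and BMP branches were listed for comparison. Of the TGF-beta branch 6 of 10 genes were tested and 0 called in either comparison. Of all tested genes 0.0168% were called between KO and WT, and 0.947% higher and 1.03% lower between the lines. Lower in KO in both lines were 2 of the 6, beside 86.3% of all tested genes. The median log2 fold changes were -0.099 for KO against WT and 0.22 for line 6 against line 4. Of the BMP branch 13 of 18 were tested, with medians of -0.20 for KO against WT and 0.23 for line 6 against line 4. Of these 13, 1 was called lower in line 6, beside 1.03% of all tested genes. This was Bmp7, a BMP ligand, at 0.89 FPKM (KO) and 1.38 FPKM (WT) in line 6, against 2.72 FPKM (KO) and 4.48 FPKM (WT) in line 4 (limma adjusted p = 0.00402, log2 fold change -1.09, SE 0.26). It was lost without KO replicate 2 or WT replicate 2 (1.00) and without the filter (0.458).

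**Figure D4:**
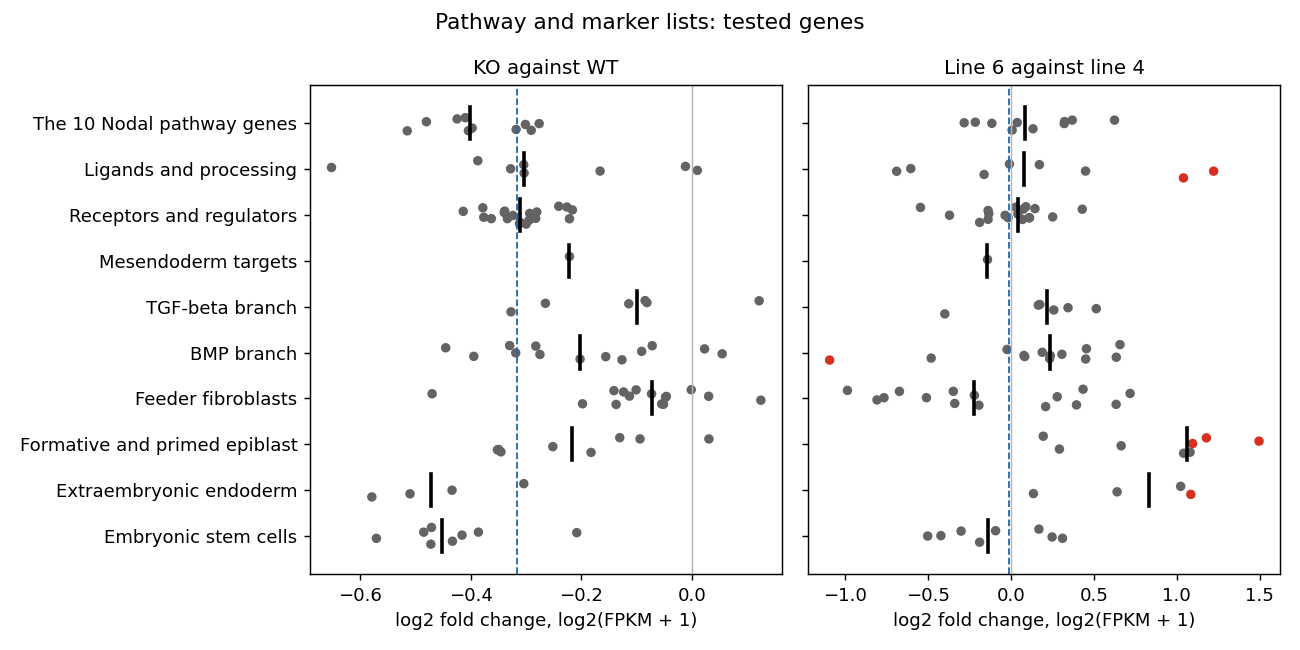
Log2 fold change of each tested gene between KO and WT (left) and between line 6 and line 4 (right), by list, 1 point per gene, red where the limma adjusted p is under 0.05, with a black bar at the list's median and a dashed line at the median of all tested genes (-0.32 and -0.013). The 10 Nodal pathway genes lie between -0.52 and -0.28 for KO against WT and between -0.28 and 0.63 for line 6 against line 4. Of them 0 were called.

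Likeness of pattern was measured as the distance between gene-centred log2(FPKM + 1) over the 4 libraries, and 4 values are matched easily by chance. Nearest to Nodal were Ppip5k2, Snhg9 and Zfp445 (distances of 0.0226, 0.0322 and 0.0564). Nearest to Lefty1 were Rnaseh2c, Hmgb3 and Adk (0.0505, 0.0644 and 0.0698), and nearest to Lefty2 were Josd2, Id2 and Apex1 (0.0534, 0.0666 and 0.0746). Lefty2 was at 0.258 from Lefty1, with 538 of the 11932 tested genes nearer. Nodal was at 0.436 from Lefty1, 0.497 from Lefty2 and 0.610 from Tdgf1, with 4793, 6128 and 8212 genes nearer. Among these 4 libraries Nodal thus did not share a profile with its inhibitors more closely than many other genes did. The 2 Lefty genes were nearer to each other than to Nodal, and the part of reads that fit both was not tested.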

How the data were processed

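Total RNA of 4 stem cell clones was sequenced after ribosomal RNA removal with a stranded kit, with ERCC spike-ins added per µg of RNA, per the labels' protocols. The authors deposited FPKM normalized to the spike-ins (per the file headers), with 1 value for each gene and library. The submitters' processing notes name Bowtie 0.12.8, TopHat2 2.0.9, affy, HTSeq, edgeR and the build mm9, without roles. How spike-ins scaled the FPKM, and the depth, are not given in the sources used here, so no counting interval is given. The files hold no coordinates, and those printed are of GRCm38.p6.

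Of 23376 entries per file, 92 were spike-ins and 25 lacked a counterpart by name elsewhere. Values were used as log2(FPKM + 1), on which fold changes of low genes are understated, for genes whose mean reached 1 FPKM. KO against WT, and line 6 against line 4, were each fitted with limma 3.58.1 in R 4.3.3 (trend, two-sided, Benjamini-Hochberg over all tested genes, threshold 0.05), without a second term, and the fit was tested on simulated data. In the test between lines the prior df was infinite, so genes of like level shared 1 spread. P-values rest on single clones, and an exact permutation test of 2 against 2 cannot go below 0.333. The replicate number is the founder line in the clone names, so it pairs the samples. Same-line deviations correlated at r = 0.70 across genes, which are not independent replicates. Alternatives were the block, scaling, filters, pseudocount, robust spread and left-out libraries. Members and lists were chosen with earlier results of these data known. Named genes were the members, listed genes past a test, the 2 most abundant others of each Nodal list, and the 3 nearest in pattern to Nodal, Lefty1 and Lefty2, leaving out short RNAs, pseudogenes and unnamed models; 1 gene of the lists is not reported here and enters no list count. Markers whose values touch a result were named in addition, after their values were seen.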

Additional observations from a re-analysis of the deposited data

Results flagged for a closer look

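For Smad2, Smad3, Smad7 and Skil the difference between line 6 and line 4 went in opposite directions in the genotypes, up among KO clones and down among WT clones. The KO difference less the WT difference was 0.41 for Smad2, 0.297 for Smad3, 0.634 for Smad7 and 0.231 for Skil, in log2(FPKM + 1). The median of all tested genes also differed in sign, at 0.12 among KO clones and -0.14 among WT clones.

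Taken from the line's median gene, KO minus WT went in opposite directions in the lines for 6 members. The line 6 value less the line 4 value was -0.514 for Lefty1, -0.44 for Lefty2, -0.337 for Foxh1 and -0.234 for Acvr2b, which were below the median gene in line 6 and above it in line 4. It was 0.374 for Smad7 and 0.15 for Smad2, which went the other way. None of these differences between lines or genotypes was tested, since 1 clone stands for each.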

How the results depend on the processing

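On the deposited scale all 10 members kept their direction in KO under every pseudocount, filter, block, spread and left-out library in which they were tested (Smad3 missed the filter at 5 FPKM). On centred values, with or without the replicate block, Smad2, Smad3, Skil and Eomes were above 0 in KO (0.0045, 0.0294, 0.015 and 0.0836), and with quantile normalization Smad2, Smad3, Skil, Smad7, Eomes and Gdf3 were (0.0009, 0.0156, 0.0668, 0.0135, 0.003 and 0.0309). These scalings take away the shift of all genes, whose median was -0.011 and 0.0013 there. Between KO and WT 2 genes were called, against 95 with the replicate block (4 higher, 91 lower), 91 with the block and a robust spread, 33 with the block on centred values (31 higher, 2 lower), 8 with a filter at 5 FPKM, 0 without a filter, 0 on centred values and 0 with quantile normalization. At an unadjusted p under 0.05 the main test had 10 genes higher and 651 lower. Leaving out 1 library gave 0 to 125. Between lines 236 genes were called, against 1089 with a genotype term, 1096 with this term and a robust spread, 3531 with it on centred values, 3602 on centred values, 3865 with quantile normalization, 75 with a filter at 5 FPKM and 0 without a filter. Leaving out 1 library gave 6 to 1627. In KO against WT the block changed no call of the members, Gdf3, Pcsk6, Drap1, Nomo1 or Eomes. Among the members, the genotype term between lines added Lefty2 and, on centred values, Nodal. Calls of the remaining listed genes and of the cell state markers were not followed under these terms. Gdf3 passed between lines on centred values with and without this term (0.492, adjusted p = 0.0104 and 0.00665) and with quantile normalization (0.00683). The cause of these differences was not tested. With 1 library left out, ranges that crossed 0 were, between lines, -0.0788 to 0.727 (Nodal), -0.628 to 0.0675 (Tdgf1), -0.119 to 0.387 (Smad2), -0.326 to 0.0986 (Smad3), -0.309 to 0.326 (Smad7), -0.164 to 0.242 (Skil), -0.157 to 0.242 (Drap1), -0.273 to 0.365 (Nomo1) and -0.095 to 0.44 (Pcsk6). Such fits set unequal numbers of KO and WT, or of lines, against each other. Depth is unknown, so how far it limits the genes near 1 FPKM cannot be given.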

Other observations

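The balance of ligand and inhibitors differed between libraries. Lefty1 and Lefty2 summed to 111 and 85.5 FPKM in the KO clones of lines 6 and 4, against 159 and 105 FPKM in the WT clones of lines 6 and 4. Per FPKM of Nodal this was 4.61 and 5.57 in the KO clones, against 5.63 and 3.81 in the WT clones, so the ratio was lower in KO in line 6 and higher in KO in line 4. The ratio of Lefty2 to Lefty1 followed the line, at 0.79 (KO) and 0.777 (WT) in line 6, against 0.641 (KO) and 0.665 (WT) in line 4. The ratio of Smad2 to Smad3 did so too, at 2.07 (KO) and 2.00 (WT) in line 6, against 1.63 (KO) and 1.70 (WT) in line 4. So did that of Tdgf1 to Nodal, at 20.0 (KO) and 20.5 (WT) in line 6, against 32.8 (KO) and 29.6 (WT) in line 4. Scaling of a library cancels in these ratios. They were computed after the data were seen and have no test, and the split of reads between Lefty1 and Lefty2 is uncertain.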
